A study of Caenorhabditis elegans with 6 samples.

Results

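The formins of Caenorhabditis elegans were followed across 6 RNA sequencing libraries, made from anchor cells or from the whole body. The 6 genes exc-6, inft-2, cyk-1, daam-1, fhod-1 and frl-1 were chosen by symbol, 6 of 46748 gene rows in the count tables, and all 6 passed the filter on low counts. The choice was made with the anchor cell to whole-body contrast already known, so their differences in that contrast are given as descriptions and carry no test.

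The data were 3 anchor cell libraries and 3 whole-body libraries of wild-type larvae. All were collected in mid L3, at the stage with 2 daughters of the vulval precursor P6.p, after growth at 20 °C on NA22 bacteria. The anchor cell is the single uterine cell that invades through basement membrane to connect uterus and vulva. Cells of both groups were released from larvae with SDS, DTT and pronase E and passed through a 5 μm filter, and the sources used here do not say how anchor cells were separated from the rest. The labels do not say whether the libraries of a group came from separate cultures, so p-values measure only the spread between these libraries. Whole-body libraries can themselves hold anchor cells.

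Formins are actin assembly factors. The conserved FH2 domain of a formin dimer starts an unbranched filament and stays on its growing end, while the FH1 domain feeds it actin bound to profilin. Many formins are held inactive until released by small GTPases, and some also bind microtubules. In the worm, EXC-6 and INFT-2 are related to the vertebrate inverted formin INF2, and EXC-6 is known for shaping the tubule of the excretory canal cell, where CYK-1, INFT-2, the exchange factor EXC-5 and CDC-42 also act. CYK-1 is the diaphanous-type formin of the cytokinetic ring, FHOD-1 promotes sarcomere growth in body wall muscle, DAAM-1 belongs to the family linked to Wnt planar polarity signalling, and FRL-1 is the formin-like (FMNL) member.

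The genes lie on 3 chromosomes of WBcel235. Exc-6 spans 1103208 to 1111944 on the plus strand of chromosome III and has 1 annotated transcript of 11 exons with 2650 bases. Inft-2 spans 13002317 to 13006987 on the plus strand of chromosome V, and daam-1 64530 to 83832 on the minus strand of the same chromosome. Cyk-1 lies on the minus strand of chromosome III at 7023642 to 7029205 and frl-1 on its plus strand at 2124137 to 2151554. Fhod-1 lies on the minus strand of chromosome I at 5058251 to 5068831 and has the longest exon sequence of the family, 5781 bases over 8 annotated transcripts. No annotated gene overlaps exc-6, daam-1 or fhod-1. Cyk-1 shares 11 exon bases with rfl-1 and inft-2 shares 18 with F15B9.10, both on the opposite strand. The sources used here do not give the strand setting of the counting, so reads from those bases cannot be told apart.

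The libraries held 23279623 to 37501816 counts on genes. Of these, 36.8% to 66.5% fell on rRNA or on transcripts of the mitochondrial genome. Formin counts ranged from 98 to 9018 per gene and library, well above the 3 counts (0.0483 to 0.153 CPM) used as the detection floor. Of 10 anchor cell markers 7 rose in the anchor cell libraries and none fell (edgeR's quasi-likelihood test, Benjamini-Hochberg adjusted p under 0.05). By the same test 2.01% of all 11955 tested genes rose and 1.05% fell, the background for all marker counts below. The summed level of the 10 anchor cell markers was 1434, 3244 and 2675 CPM in anchor cell replicates 1, 2 and 3. It was 403 to 647 CPM in the whole-body libraries. None of the 10 was at 0 in any library. Markers of other tissues were also present in the anchor cell libraries. In anchor cell replicates 1, 2 and 3 the summed level of 8 body wall muscle markers was 3855, 3002 and 3491 CPM, that of 10 neuronal markers 1735, 3348 and 3057 CPM, and that of 9 epidermal markers 763, 2287 and 6515 CPM. The whole-body libraries had 9508 to 13924, 357 to 634 and 224 to 1012 CPM for the same lists. Single genes carried much of the neuronal and epidermal sums, and 1 of each list is named here after its values were seen. Unc-119 alone had 506, 2604 and 2123 CPM of the neuronal sum in anchor cell replicates 1, 2 and 3. Sqt-3 alone had 196, 1488 and 4872 CPM of the epidermal sum there. Muscle markers had 2 falls and no rises, and neuronal markers 1 rise, unc-119, and no falls, all by edgeR. Of the epidermal markers edgeR called none in either direction. Before adjustment 5 of these passed 0.05 upward and 2 downward, and the share of all genes at that level is not given here. With DESeq2 2 of these rose and 1 fell, beside 798 rises and 1580 falls over all genes. Germ line, intestine, pharynx and gonadal sheath markers had median log2 fold changes of -3.23, -1.32, -0.87 and -0.32, against -0.12 over all tested genes. In these lists edgeR called no rises, 2 falls in germ line, 1 each in intestine and sheath, and none in pharynx. The part of other tissues in the formin values was not tested. In bulk RNA, fewer cells of a type and less RNA per cell cannot be told apart.

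The family was dominated by 1 gene in anchor cells and shared among several in the whole body. Per kilobase of exon, exc-6 was the most abundant formin in each anchor cell library and ranked 4 or 5 of 6 in the whole-body libraries, whereas frl-1 ranked first in every whole-body library and last in anchor cell replicates 2 and 3. Of the 6 genes, exc-6 and frl-1 had no overlap between the groups, exc-6 higher and frl-1 lower in anchor cells, and the other 4 overlapped. Over all 11955 tested genes, 35.6% had no overlap, 12.4% higher and 23.2% lower. Under edgeR's threshold of an adjusted p of 0.05, 1 formin was called higher, exc-6, and none lower, beside 2.01% and 1.05% of all tested genes. The median log2 fold change of the 6 was 0.04, against -0.12 over all tested genes. Since the genes were picked with this contrast known, nothing is read from these counts.

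**Figure D1:**
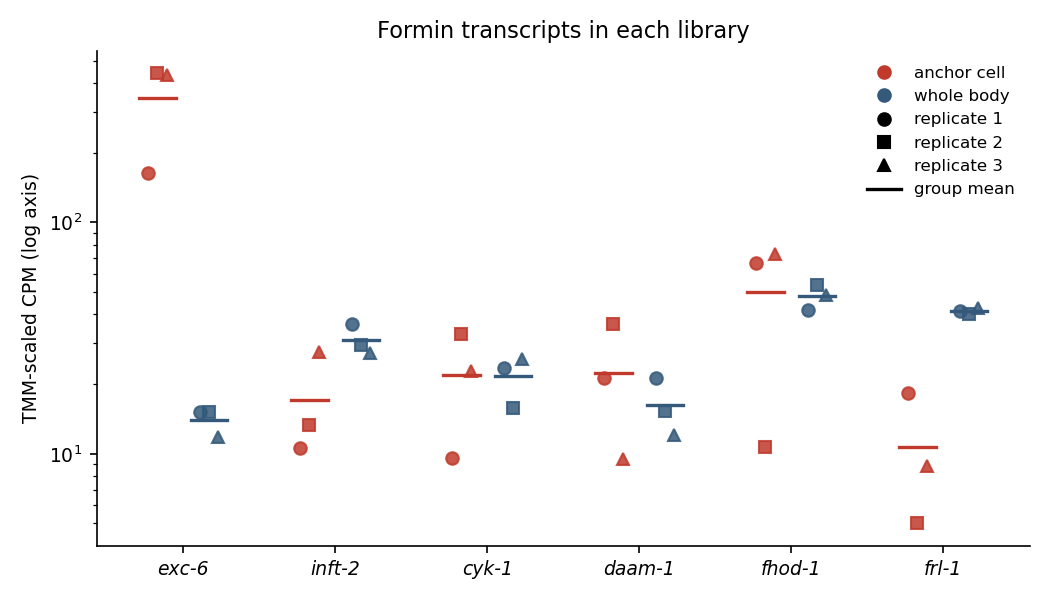
Level of each formin in each library, in TMM-scaled CPM, on a log axis. Red symbols are anchor cell libraries and blue symbols whole-body libraries, the symbol shape gives the replicate, and bars are group means. The exc-6 symbols of the groups lie far apart (at least 164 against at most 15.1 CPM), those of frl-1 are separated the other way, and those of the other 4 genes overlap.

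Exc-6, the INF2-type formin, had 4110, 8619 and 9018 counts in anchor cell replicates 1, 2 and 3, against 625, 941 and 334 in whole-body replicates 1, 2 and 3. After scaling by TMM, which corrects for library size and composition, these were 164, 441 and 434 CPM, that is counts per common library size, against 15.1, 15.1 and 11.8 CPM. Replicate 1 was the lowest anchor cell library, yet it stood 10.8-fold above the highest whole-body library. The mean was 346 ± 158 CPM in anchor cells and 14.03 ± 1.93 CPM in the whole body (SD, n = 3 each), a log2 fold change of 4.62 ± 0.52 (SE). The anchor cell libraries differed among themselves by 2.69-fold and the whole-body libraries by 1.28-fold. The lower level in anchor cell replicate 1 went with the lower sum of anchor cell markers there, whose part in the difference was not tested. Not all markers shared it. Cdh-3, lin-3, him-4 and zmp-1 were highest in replicate 1, cdh-3 with 288, 221 and 148 CPM in replicates 1 to 3, and the others were lowest there. Among all tested genes exc-6 had the 111th largest log2 fold change.

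Frl-1, the FMNL-type formin, ran the opposite way. It had 18.4, 5.01 and 8.86 CPM in anchor cell replicates 1, 2 and 3 and 41.4, 40.3 and 42.8 CPM in the whole-body replicates. The whole-body libraries were close to each other, within 1.06-fold, while the anchor cell libraries spread 3.66-fold with replicate 1 the highest. The groups did not overlap, the lowest whole-body library standing 2.20-fold above the highest anchor cell library. The log2 fold change was -1.95 ± 0.61 (SE) and did not reach the threshold in edgeR. The choice of method matters here, since frl-1 did pass with limma voom and sample weights, where 11.4% of genes were called lower, and without anchor cell replicate 1, where 8.71% were.

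Inft-2, the paralog closest in type to exc-6, showed no such excess in anchor cells. Its levels were 10.6, 13.3 and 27.5 CPM in anchor cell replicates 1 to 3 and 36.3, 29.7 and 27.3 CPM in the whole body. Anchor cell replicates 1 and 2 were below all whole-body libraries, and replicate 3 just reached the lowest of them. The log2 fold change was -0.86 ± 0.57 (SE).

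Cyk-1, the cytokinesis formin, had nearly equal means, 21.8 ± 11.7 CPM in anchor cells and 21.7 ± 5.19 CPM in the whole body (SD, n = 3 each). Its anchor cell values of 9.64, 33.0 and 22.8 CPM in replicates 1, 2 and 3 enclosed the whole-body values of 23.5, 15.8 and 25.7 CPM. Daam-1 also overlapped, with 21.2, 36.3 and 9.49 CPM in anchor cells and 21.2, 15.3 and 12.02 CPM in the whole body. The log2 fold changes were 0.01 ± 0.61 for cyk-1 and 0.46 ± 0.64 for daam-1 (SE). Scaling libraries by their totals alone shifts the median of all tested genes from -0.12 to -0.94, and under it the values were -0.85 and -0.35.

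Fhod-1, the muscle formin, was the most uneven of the family among anchor cell libraries. It had 66.9 and 73.1 CPM in anchor cell replicates 1 and 3 but 10.7 CPM in replicate 2, a 6.80-fold spread, against 41.7, 53.9 and 48.6 CPM in whole-body replicates 1 to 3. The log2 fold change was 0.06 ± 0.64 (SE), and -0.76 with library totals. The summed body wall muscle markers given above were also lowest in anchor cell replicate 2, though by much less, and single markers differed in which replicate was lowest. Like fhod-1, the markers unc-15, unc-22, tni-1 and mup-2 were lowest in anchor cell replicate 2. Unc-15 had 1408, 443 and 574 CPM in anchor cell replicates 1 to 3. The markers unc-54, unc-27 and hlh-1 were lowest in replicate 1, and myo-3 in replicate 3. Unc-54, a muscle myosin gene, had 1278, 1850 and 1823 CPM in anchor cell replicates 1 to 3. Hlh-1, the muscle fate regulator among them, had 23 counts summed over anchor cells, 0 of them in replicate 1, and 200 over the whole body. The part of muscle RNA in the fhod-1 values was not tested. Fozi-1, a zinc finger protein with a formin-like FH2 domain that acts as a transcription factor in the mesodermal lineage, had the same low replicate. It had 35.9, 9.87 and 45.4 CPM in anchor cell replicates 1 to 3 and 36.1, 54.9 and 24.2 CPM in the whole body.

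**Figure D2:**
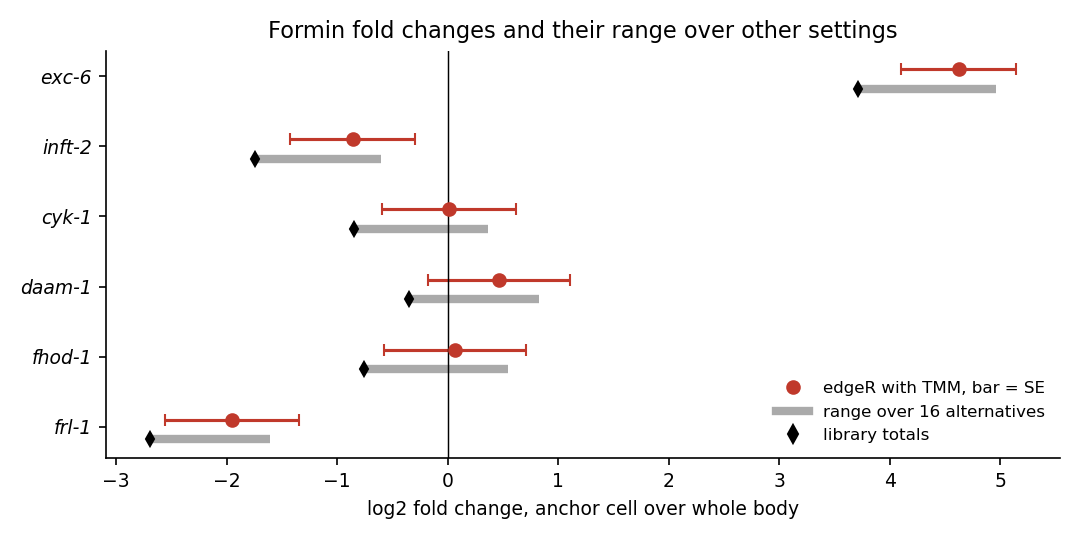
Log2 fold change of each formin, anchor cell over whole body. Red points with bars are edgeR estimates with TMM scaling and their SE, grey bars span 16 alternative settings, and black diamonds mark library totals alone. Exc-6 stays between 3.71 and 4.96 and frl-1 between -2.70 and -1.61, while cyk-1, daam-1 and fhod-1 fall on both sides of 0.

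The balance within the family does not depend on how libraries are scaled to each other. For this, counts were divided by exon length in kilobases and expressed as a share of the 6 formins in the same library. Exc-6 made up 70.2%, 88.0% and 84.7% of the formin total in anchor cell replicates 1, 2 and 3, against 13.2%, 14.2% and 11.3% in whole-body replicates 1, 2 and 3. As raw counts in single libraries, without length, its share was 56.4% in anchor cell replicate 1 (95% Wilson interval 55.2% to 57.5%) and 8.90% in whole-body replicate 2 (8.38% to 9.46%), the pair of libraries nearest to each other. These intervals cover counting error only. Frl-1 held 25.7% ± 1.64 of the per-kilobase total in the whole body and 2.37% ± 2.53 in anchor cells (SD, n = 3 each). Inft-2 held 20.1% ± 2.00 and 2.96% ± 0.987 in the same order.

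**Figure D3:**
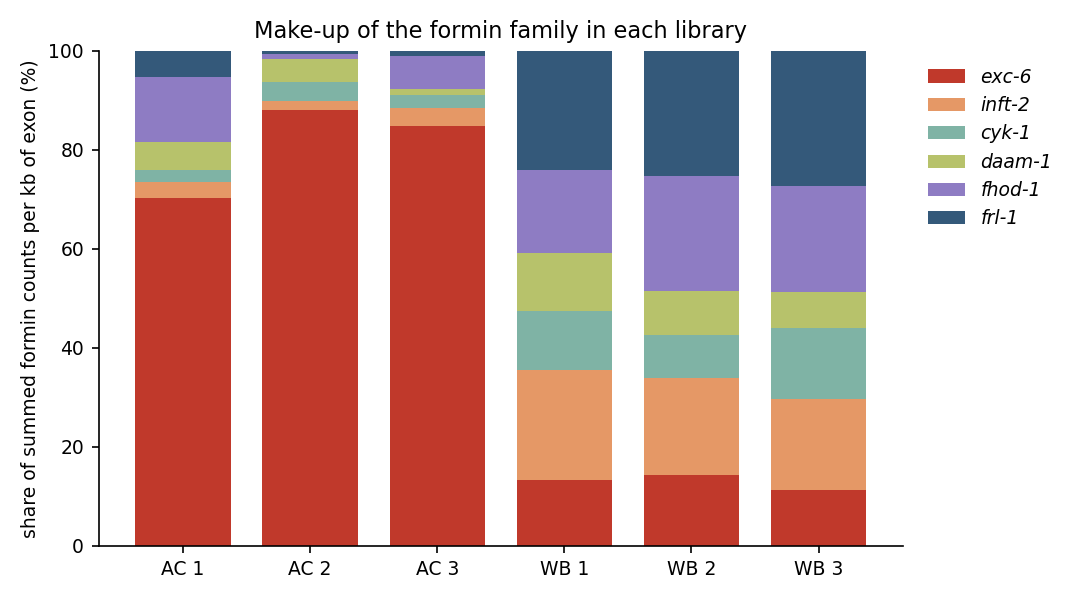
Share of each formin in the summed formin counts per kilobase of exon, in percent, for anchor cell (AC) and whole-body (WB) replicates 1 to 3. Exc-6 fills 70.2% to 88.0% of the anchor cell bars and 11.3% to 14.2% of the whole-body bars.

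Per kilobase, exc-6 reached 131 ± 59.7 CPM in anchor cells, and fhod-1, the next formin, 8.69 ± 5.94 CPM (SD, n = 3 each). Below exc-6 the order of the other 5 differed from 1 anchor cell library to the next, and their spreads overlapped. In the whole body the levels ran from 10.5 ± 0.318 CPM per kilobase for frl-1 through 8.31 ± 1.06 for fhod-1, 8.29 ± 1.24 for inft-2, 5.29 ± 0.727 for exc-6 and 4.79 ± 1.15 for cyk-1 to 3.86 ± 1.11 for daam-1. The values of fhod-1 and inft-2, and those from exc-6 to daam-1, overlapped. Summed over the 6 genes, formin transcripts came to 157 ± 59.6 CPM per kilobase in anchor cells and 41.1 ± 2.02 in the whole body. Without exc-6 the sums were 26.1 ± 3.46 and 35.8 ± 1.65 (SD, n = 3 each).

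Paired within each library, exc-6 exceeded its relative inft-2 by 21.8-, 47.1- and 22.4-fold per kilobase in anchor cell replicates 1, 2 and 3. In the whole-body libraries inft-2 was the higher of the pair, by 1.38- to 1.69-fold. Exc-6 over cyk-1 was 22.8 to 32.4 in anchor cells and 0.785 to 1.63 in the whole body. Among 17959 protein-coding nuclear genes matched by name, exc-6 ranked 556th, 312th and 388th per kilobase in anchor cell replicates 1, 2 and 3 and 3718th to 4377th in the whole body. The other 5 formins ranked between 2378th and 6131st in all libraries.

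The gene whose profile over the 6 libraries was most like that of exc-6 was the anchor cell marker lag-2. Likeness was the root mean square difference of log2 CPM after centring each gene on its own mean, which was 2.93 for the median gene. The closest of all 11954 other tested genes was lag-2, a Notch ligand made by the anchor cell, at 0.18. Among genes with a gene-class symbol it was followed by hlh-2, a bHLH transcription factor (0.36), linc-10, a long non-coding RNA gene (0.39), the Wnt ligand gene mom-2 (0.43) and the zinc finger gene egl-43 (0.45). These 5 took places 1, 5, 9, 12 and 13 among all genes, and the genes between them, which have no gene-class symbol, are not described. Linc-10 was at 0 counts in all whole-body libraries and had 12 to 49 counts in the anchor cell libraries, so its place rests on few reads. Lag-2, hlh-2 and egl-43 are in the anchor cell marker list, and the 6 libraries are the only points behind the ranking. The measure depends largely on the difference between the groups, the contrast known when exc-6 was picked. Genes much higher in anchor cells therefore come near exc-6 in part by construction. Of the formins, daam-1 came closest at 2.24 and frl-1 was farthest at 3.47. They also had the highest and lowest log2 fold change among the formins other than exc-6, 0.46 and -1.95.

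**Figure D4:**
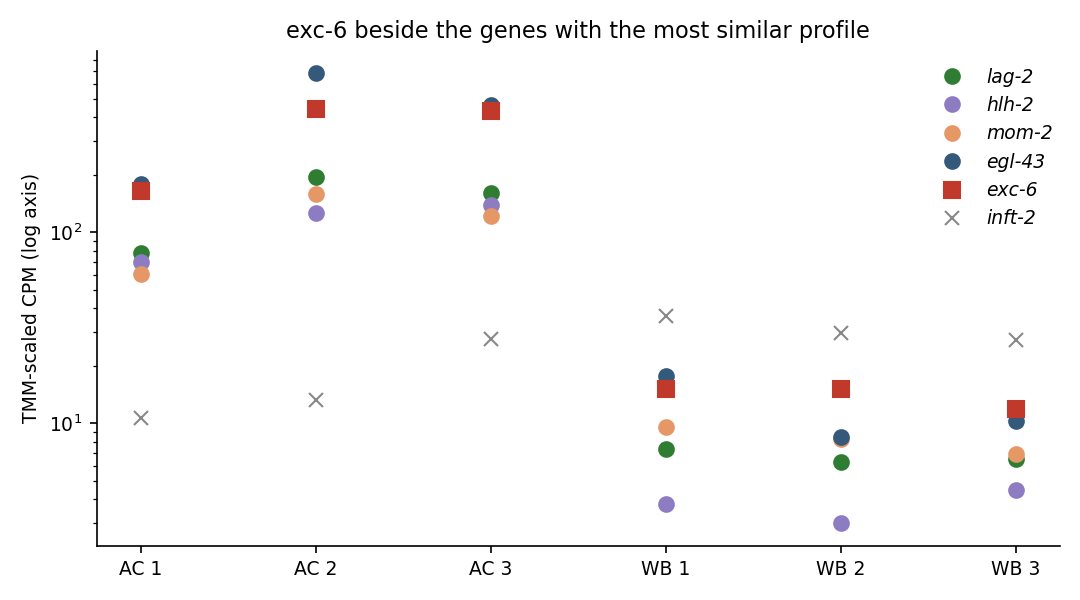
Level of exc-6, of 4 of the 5 genes named as most similar and of inft-2 in each library, in TMM-scaled CPM on a log axis, for anchor cell (AC) and whole-body (WB) replicates 1 to 3. Exc-6 and lag-2 keep nearly the same distance in every library, and inft-2 runs below exc-6 in anchor cells and above it in the whole body.

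Exc-6 and lag-2 kept a near-constant ratio. Per kilobase of exon, exc-6 was 1.19, 1.28 and 1.53 times lag-2 in anchor cell replicates 1, 2 and 3 and 1.16, 1.35 and 1.02 times lag-2 in whole-body replicates 1, 2 and 3. Lag-2 itself stood at 77.5, 194 and 160 CPM against 7.31, 6.29 and 6.50 CPM. The ratio to nhr-67, a nuclear receptor gene of the anchor cell chosen here after its values were seen, was 1.06 to 1.54 in anchor cells and 4.203 to 9.09 in the whole body. Since lag-2 was picked as the closest of many genes, its ratio is a description.

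Excretory canal genes were examined because exc-6 is known from that cell. Of 20 tested canal genes other than the formins, 2 rose and 1 fell, beside 2.01% and 1.05% of all tested genes. Their log2 fold changes had a median of 0.63, and -0.29 under library totals, against -0.12 and -0.94 over all tested genes. Exc-9, which encodes a small LIM domain protein of the canal, rose to 810 ± 613 CPM from 27.4 ± 2.99 CPM (SD, n = 3 each), with 109, 1071 and 1249 CPM in anchor cell replicates 1, 2 and 3. Ccm-3, a gene of canal growth, rose by 2.06 on the log2 scale. Ifc-2, an intermediate filament gene of canal and intestine, fell by 2.22. With single libraries left out, the call of exc-9 was kept in 4 of 6 settings and those of ccm-3 and ifc-2 in 1 each. Under library totals the call of ccm-3 was lost and those of exc-9 and ifc-2 were kept. The exchange factor gene exc-5, named for its known link to EXC-6, had 8.12, 7.57 and 9.49 CPM in anchor cells and 21.9, 23.5 and 10.6 CPM in the whole body and was not called.

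Markers of the excretory cell did not move together. Of 7 markers 1 rose, exc-9, and none fell, and their summed level was 381, 1216 and 1520 CPM in anchor cell replicates 1 to 3 against 125 to 269 CPM in the whole body, most of it from exc-9 in replicates 2 and 3. Some of them are named here after their values were seen. The aquaporin gene aqp-8 had 41 counts over the 3 anchor cell libraries (0.119 to 1.35 CPM) against 7.95 to 12.2 CPM in the whole body. The transporter gene pgp-12 was low in both groups, at 0.677, 5.83 and 0 CPM in anchor cell replicates 1, 2 and 3 and 1.28, 3.49 and 0.884 CPM in the whole body. Of the 7 markers 5 had a log2 fold change above 0, among them exc-4, ceh-6 (1.20) and nhr-31 (0.90), none of which was called. The median of the 7 was 0.90, and 0.01 under library totals. Ceh-6 was above the whole-body libraries only in anchor cell replicate 1. Exc-4, a gene of the CLIC family, had 3.62, 8.19 and 55.2 CPM in anchor cell replicates 1, 2 and 3 and 5.96 to 8.40 CPM in the whole body.

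Genes of the pathways that act on or with formins were counted in 6 lists. Together these held 131 tested genes other than the 6 formins, of which 12 rose and 7 fell, beside the 2.01% and 1.05% of all tested genes that did so. The lists were drawn up with earlier results of these libraries known. None of these calls was kept in all 6 settings with a library left out, and mom-2, kept in 5 of 6, came closest. Dropping anchor cell replicate 2 left 2 rises and no falls, and dropping replicate 3 left 5 and 3, but dropping replicate 1 gave 25 and 19. Dropping whole-body replicate 1 gave 3 rises and 1 fall, dropping replicate 2 gave 2 and 1, and dropping replicate 3 gave none.

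Of 28 tested genes of actin, profilin and filament regulators, 3 rose and 2 fell (median 0.39, and -0.45 with library totals). Unc-34, the Enabled homolog that also works at growing filament ends, rose by 2.47 ± 0.45 (SE). Tth-1, a thymosin gene that binds actin monomers, rose to 552 ± 640 CPM from 44.7 ± 3.61 CPM (SD, n = 3 each), and anchor cell replicate 3 alone had 1282 CPM. The filamin gene fln-2 rose by 1.58, its paralog fln-1 fell by 1.83, and the gelsolin-like gene gsnl-1 fell by 2.55. Under library totals the calls of unc-34, tth-1 and fln-2 were lost and those of fln-1 and gsnl-1 were kept. The profilins, which carry actin to formins, are named for that role after their values were seen. Pfn-1 had 339, 826 and 817 CPM in anchor cells against 295 to 369 CPM, and pfn-2 had 94.7, 361 and 329 CPM against 57.8 to 101 CPM. Pfn-3 was low and ran the other way, with 9 counts summed over anchor cells and 249 over the whole body. None of the 3 was called.

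Of 23 tested contractile ring genes, the partners of CYK-1, 3 rose and none fell (median -0.17, and -0.96 with library totals). These were the non-muscle myosin heavy chain gene nmy-1, up by 2.37 ± 0.42, the regulatory light chain gene mlc-4, up by 2.45 ± 0.56, and the survivin homolog gene bir-1, up by 2.48 ± 0.55 (SE). All 3 calls were lost under library totals. Among 18 tested Wnt and planar polarity genes 2 rose and none fell (median -0.22, and -1.07 with library totals). The Wnt gene mom-2 rose by 3.79 ± 0.53 and the Prickle homolog gene prkl-1 by 3.91 ± 0.64 (SE).

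Of 15 tested microtubule genes 2 rose and none fell (median 1.49, and 0.57 with library totals). The tubulin genes tba-1 and tbb-2 rose by 2.36 ± 0.50 and 2.11 ± 0.42 (SE). Both calls were lost under library totals, and each was kept in 1 of 6 settings with a library left out. Tubulin genes resemble each other closely, so reads may be shared between copies and these values are uncertain. Of 28 tested sarcomere and dense body genes, the setting of FHOD-1, none rose and 4 fell (median -1.20, and -2.03 with library totals). Unc-27, a troponin I gene, fell by 2.54 ± 0.40, unc-89, the obscurin homolog gene, by 2.08 ± 0.45, and dim-1, a gene of muscle integrity, by 1.63 ± 0.37 (SE). The fourth was the paramyosin gene unc-15. Fhod-1 itself, with its overlap between the groups, is described above.

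**Figure D5:**
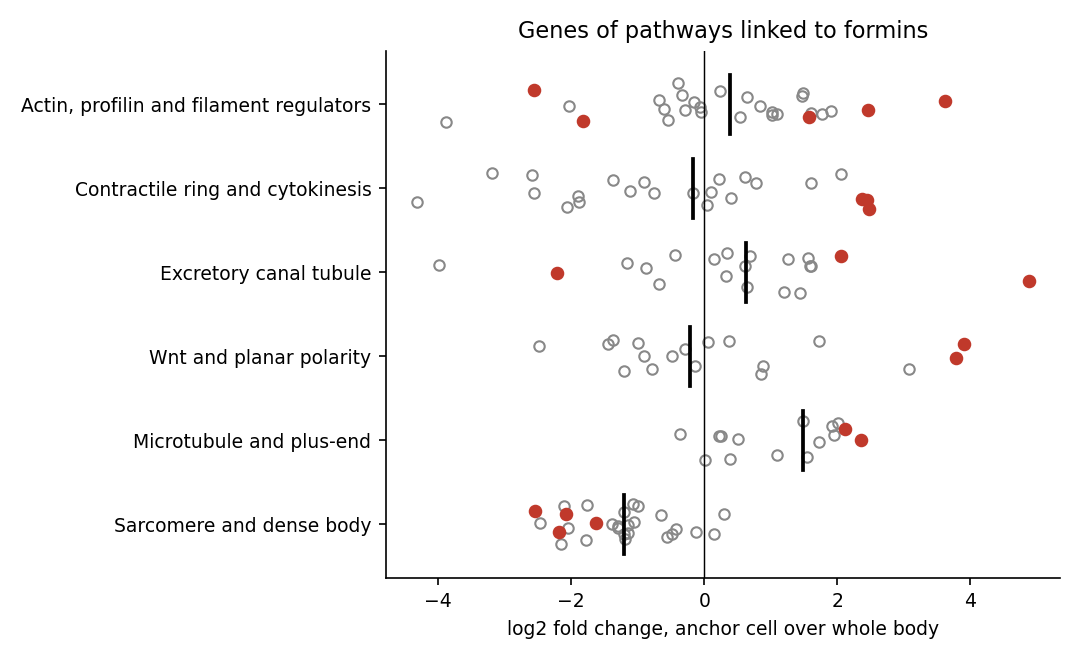
Log2 fold change, anchor cell over whole body, of each tested gene in 6 lists of formin-linked pathways, the formins left out. Filled red points passed edgeR's adjusted p of 0.05, open grey points did not, and black bars are list medians. The sarcomere list has 4 filled points below 0 and none above, and the Wnt, contractile ring and microtubule lists have filled points only above 0.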

How the data were processed

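RNA was measured in 3 anchor cell and 3 whole-body libraries made with the Ovation RNA-Seq System, per the labels' protocols. The authors deposited raw counts per gene, with 5 summary rows that stayed out of library sizes and tests; reads on no gene were 0.807% to 3.88% of each library. The submitters' processing notes name HTSeq, STAR, Trim Galore and FastQC, build WBcel235, DESeq2 1.30.1 and R 4.0.2. Locations and exon lengths came from Ensembl release 115 of that build.

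Counts were filtered with filterByExpr, scaled by TMM and tested with edgeR 4.0.16 (robust quasi-likelihood, R 4.3.3), group as the only term, Benjamini-Hochberg adjusted p under 0.05 over 11955 genes. SE is the absolute log2 fold change over the square root of F. The step was tested on simulated data. The formins, the lists and the naming rule were chosen with earlier results of these data known. The rule took the 6 formins, fozi-1, the 3 called genes with the smallest adjusted p per direction and list, and the 5 genes most like exc-6. No library duplicated another (chi-square per degree of freedom 92.7 or more). Alternatives were other scalings, filters, DESeq2 1.42.0, limma 3.58.1 voom, a replicate block and each library left out. Some of the planned lists are not reported here.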

Additional observations from a re-analysis of the deposited data

How the results depend on the processing

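The log2 fold change of exc-6 was 3.71 to 4.96 over the 16 alternatives, a description, since the gene was picked with this contrast known. The number of formins called lower went from 0 to 1, frl-1, with limma voom and sample weights, and was 0 to 1 over the leave-one-out settings, 1 without anchor cell replicate 1. Cyk-1, daam-1 and fhod-1 changed sign in 9, 2 and 10 of the 16, some of which shift all genes together, whereas inft-2 and frl-1 did so in none, and inft-2 moved by more than its replicate SD, to -1.74, with library totals. Counts over all tested genes, 240 rises and 125 falls, moved far more, to 798 and 1580 with DESeq2, 390 and 1078 with limma voom, 663 and 1368 with sample weights, 603 and 372 with no filter, 98 and 372 with library totals, and 273 and 197 with at least 10 CPM in at least 3 libraries. Leaving out single libraries gave 31 to 966 rises and 7 to 1156 falls. Among the 131 pathway genes, with 12 rises and 7 falls, the calls became 13 and 14 with DESeq2, 13 and 19 with limma voom, 18 and 18 with sample weights, 18 and 19 with no filter, 3 and 18 with library totals, and 13 and 15 with at least 10 CPM, and 0 to 25 and 0 to 19 over single libraries left out. The cause was not tested, apart from the fewer libraries or genes that some settings use.

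The labels do not say whether same-numbered libraries are paired, and with 3 libraries a group the data cannot settle it. Deviations of same-numbered libraries from their group means correlated, across genes, at 0.053, -0.032 and -0.0032. Only replicate 1 correlated best with its own number. With the replicate number as a block, edgeR called 390 genes higher and 338 lower, 13 and 15 of the pathway genes, and the log2 fold change of exc-6 was 4.51. Exon length taken from the longest transcript or from coding exons alone, both added after the data were seen, left the exc-6 share of the family at 80.2% and 79.7% in anchor cells. With 3 libraries a group, differences among the other 5 formins of the size of their SE could not be resolved.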

Other observations

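Among the markers of other cell types, the neuronal gene unc-119 stood apart, chosen here after its values were seen. It had 506, 2604 and 2123 CPM in anchor cell replicates 1, 2 and 3 and 1.84 to 4.51 CPM in the whole body. The other 9 neuronal markers, rab-3 and snb-1 among them, were not called in either direction. At an unadjusted p under 0.05 in edgeR's test, 4 of the 10 were higher and none lower. The share of all genes at that unadjusted level is not given here. All 10 had a log2 fold change above 0. Their median was 1.09, and 0.37 under library totals, against -0.12 and -0.94 over all tested genes.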
